A study of Mus musculus with 6 samples.

Results

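The chemokine system of the mouse prostate was followed in bulk RNA-seq of 6 libraries, as the genes listed under a chemokine ligand name (Ccl, Cxcl, Xcl or Cx3cl with a number) or a chemokine receptor name (Ccr, Cxcr, Xcr or Cx3cr with a number) that reached 0.5 FPKM in 1 library or more. FPKM are read numbers scaled to transcript length and to the depth of the library, so that levels of different genes can be set side by side. Of 58 such names among the 24908 rows of the table, 42 reached the minimum, 31 ligands and 11 receptors, and the account covers these 42. The other 16 stayed under it in every library. Of these, Ccl19, Ccl21a, Ccl21b, Ccl21c, Ccl26 and Ccl27b were listed at 0 throughout, where the Ccl21 genes are near-identical copies among which reads cannot be placed with certainty. The remaining 10 were low, namely Ccl1, Ccl28, Ccr1l1, Ccr3, Ccr4, Ccr6, Ccr9, Ccr10, Cxcr1 and Xcr1. The name nearest below the line was Xcr1, the receptor of cross-presenting dendritic cells, whose highest value was 0.46 FPKM in MYC DLP. The nearest above it were Cxcr5 at 0.716, Cxcr2 at 0.913 and Ccl24 at 0.95 FPKM.

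The anterior (AP), dorsolateral (DLP) and ventral (VP) lobes of 1 wild-type (WT) and 1 Hi-MYC (MYC) mouse gave 1 library each. Both were males of the FVB strain, 12 weeks old and kept on a purified diet. The MYC mouse was heterozygous for a human c-MYC transgene, which the androgen-responsive ARR2Pb promoter drives in the prostatic epithelium, and the WT mouse was a littermate without it. Each lobe was dissociated with enzymes into a cell suspension before RNA was taken, so that every library holds epithelial, stromal and immune cells together. All levels are those after this digestion, and its part in the levels of inflammatory ligands was not tested. With 1 library in each group there is no replicate, no test and no p-value anywhere below, and genotype cannot be told apart from the individual mouse. In bulk RNA, moreover, more cells of a type and more RNA per cell cannot be told apart.

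The steps in low values correspond to 25.5 M to 50.3 M mapped reads per library, with WT AP the shallowest. The row listed as Myc, in which mouse and human reads are not separated, had 230.0, 201 and 226 FPKM in WT AP, DLP and VP and 231, 586 and 1696 FPKM in MYC AP, DLP and VP. Krt8 and Krt18, keratins of luminal prostate cells, were at 388 FPKM or more in every library. Leukocytes were present in all of them as well, and the summed FPKM of 5 pan-leukocyte markers (Ptprc, Coro1a, Laptm5, Cd52 and Cd53) were 83.0, 53.9 and 14.5 in WT AP, DLP and VP against 95.6, 152 and 65.0 in MYC AP, DLP and VP. In AP and DLP most of this sum was Cd52, with 55.5 and 39.7 FPKM in WT AP and DLP and 71.3 and 80.8 FPKM in MYC AP and DLP. Genes known from the seminal vesicle, a tissue that the label does not name, summed to 522 FPKM in MYC AP and to 9.17 FPKM or less in each of the other libraries. Their part in the MYC AP values was not tested.

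Chemokines are small secreted proteins that bind G protein-coupled receptors and set the direction in which leukocytes move. The CXC and CC ligands differ in the spacing of their conserved cysteines. Inflammatory members such as Cxcl1, Ccl2 or Cxcl10 are switched on by cytokines, bacterial products or interferon and call neutrophils, monocytes or T cells, whereas homeostatic members such as Cxcl12 are made steadily by stroma. The receptors are carried mostly by leukocytes, so that in a tissue lysate ligand transcripts can come from many cell types and receptor transcripts come largely from the immune cells within it.

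In the dissociated cells of all 3 WT lobes, ligands were abundant and receptors scarce. In WT AP, DLP and VP, 35, 33 and 31 of the 42 genes were at 0.5 FPKM or more, among them 27, 26 and 26 ligands and 8, 7 and 5 receptors. In MYC AP, DLP and VP the numbers were 37, 42 and 36 genes, with 30, 31 and 29 ligands and 7, 11 and 7 receptors. All 42 were present in MYC DLP, 4 of them through the choice of members, which uses the same minimum. Altogether 29 genes, 24 ligands and 5 receptors, passed 0.5 FPKM in all 6 libraries, and Cxcl5, Ccr8, Cxcr2 and Cxcr5 passed it in MYC DLP only, so that their peak there was fixed by that choice. The summed FPKM of the 31 ligands were 885, 1225 and 771 in WT AP, DLP and VP and 856, 1424 and 1056 in MYC AP, DLP and VP. Those of the 11 receptors were 35.6, 24.1 and 10.6 in the WT lobes and 26.2, 86.2 and 37.9 in the MYC lobes. Cxcl1 was the highest ligand in WT AP, WT VP and MYC AP, Ccl3 in WT DLP, and Cxcl10 in MYC DLP and MYC VP, where it made up 50.5% of the ligand sum. Of the 42 genes, 28 (66.7%) had their highest value in MYC DLP, as had 20.5% of all 14669 genes at 0.5 FPKM or more in 1 library. All 11 receptors were among these 28, and without the 4 genes that passed the minimum in MYC DLP only it was 24 of 38 genes.

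**Figure D1:**
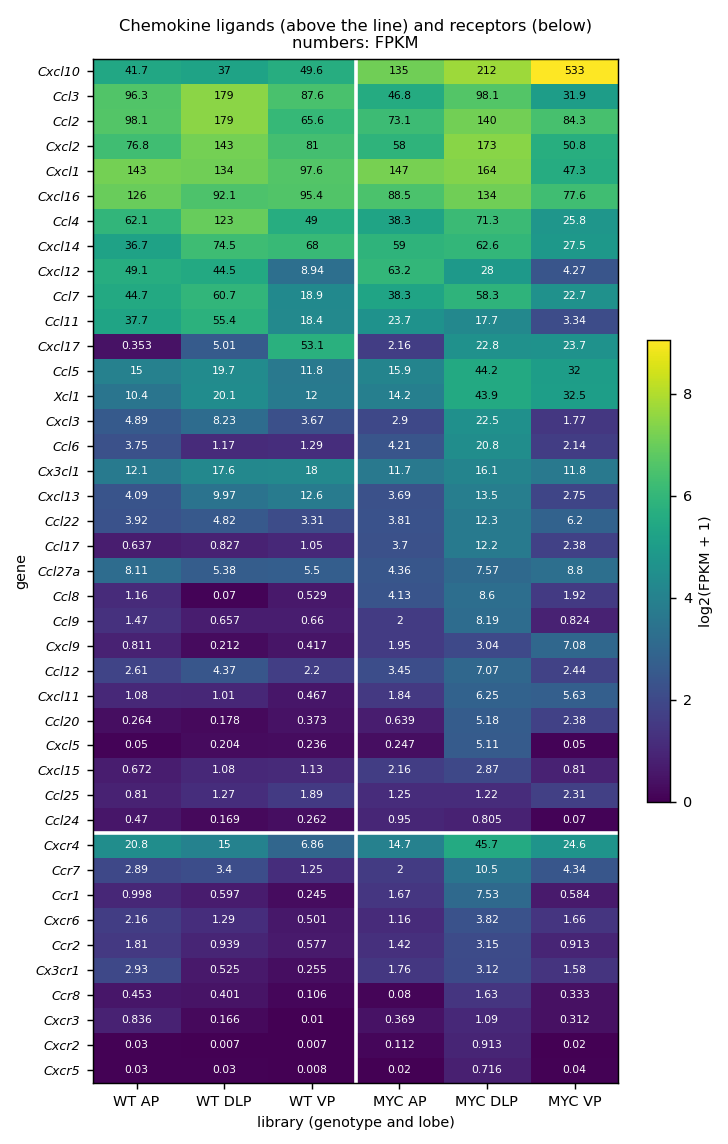
Heat map of the FPKM of the 31 chemokine ligands (above the white line) and 10 receptors (below it) in the 6 libraries, each cell coloured by log2(FPKM + 1) and printed with its FPKM. Cxcl10 stands out in MYC VP with 533 FPKM, and the receptor rows are brightest in MYC DLP.

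Among the lobes of the WT mouse, the ligand that differed most was Cxcl17, a mucosal chemokine of epithelia, with 0.353, 5.01 and 53.1 FPKM in WT AP, DLP and VP. The comparison uses the log2 ratio of FPKM + 1, which understates the ratio of low genes, and a difference of 2-fold or more on this scale is called higher or lower. The log2 ratio of Cxcl17 was 5.32 for WT VP over WT AP and 3.17 for WT VP over WT DLP. Cxcl12, the stromal ligand of Cxcr4, ran the other way with 49.1, 44.5 and 8.94 FPKM, and its log2 ratios were -2.33 and -2.19. In WT VP against WT AP, 2 of 42 genes were higher (4.76%, beside 6.95% of all genes), namely Cxcl17 and Cxcl13. In the same comparison 8 were lower (19.0%, beside 8.99%), among them Cxcl12, Cx3cr1, Cxcr4, Ccl7, Cxcr6, Ccl6 and Ccl11. Their log2 ratios ran from -2.33 for Cxcl12 to -1.0 for Ccl11, which stands at the line itself. In WT VP against WT DLP, Cxcl17 was the 1 gene higher (2.38%, beside 2.35% of all genes) and 7 were lower (16.7%, beside 5.56%). These 7 were Cxcl12, Ccl7, Ccl11, Ccl2, Ccl4, Cxcr4 and Ccl3, with log2 ratios from -2.19 to -1.02. With each of the 3 other scalings 5 were lower, since the calls of Ccl3 and Cxcr4 ended. In WT DLP against WT AP, Cxcl17, Cxcl13 and Cxcl14 were higher (7.14%, beside 3.53%), at log2 ratios of 2.15, 1.11 and 1.0. With size factors and with equal sums of FPKM Cxcl17 alone stayed 2-fold higher (beside 2.71% and 2.47%). Cx3cr1, Ccl6 and Ccl8 were lower in it (7.14%, beside 1.23%), at -1.37, -1.13 and -1.01. The median log2 ratio of the 11 receptors in WT VP was -0.84 over AP and -0.34 over DLP, and the pan-leukocyte markers summed to 14.5 FPKM there against 83.0 and 53.9 in the other two lobes. With Cxcl12, endothelial markers summed to 153, 114 and 25.8 FPKM and fibroblast markers to 1201, 1284 and 648 FPKM in WT AP, DLP and VP. The part of leukocyte, endothelial and fibroblast content in these differences was not tested.

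Between genotypes the 3 lobes differed in how many chemokine genes passed 2-fold. In AP, 4 of 42 genes were higher in MYC than in WT (9.52%, beside 1.9% of all genes), the ligands Cxcl10, Ccl17, Ccl8 and Cxcl17, and only Ccl3 was lower (2.38%, beside 0.545%). In DLP, 21 were higher (50%, beside 6.54%), 14 ligands and 7 receptors (20 of 38 without the 4 genes that passed the minimum in MYC DLP only), and only Ccl11 was lower (2.38%, beside 3.09%). In VP, 10 were higher (23.8%, beside 6.39%), 6 ligands and 4 receptors, and 6 ligands were lower (14.3%, beside 5.14%). The median log2 ratio of the 42 genes was 0.06 (AP), 1.0 (DLP) and 0.26 (VP), where all genes had a median of 0.12, 0.04 and 0.03. Under equal sums of FPKM, the scaling of the VP comparison turns toward lower values, with 4.30% of all genes higher and 7.55% lower, and 9 chemokine genes higher and 8 lower. Over the 3 lobes, 26 of the 42 genes passed 2-fold in 1 lobe or more, beside 17.6% of all genes, and 16 in none. On the scale of FPKM + 1, Cxcl10 was the only gene that was 2-fold higher in all 3 lobes. With a pseudocount of 0.1 FPKM, Ccl8, Ccl17, Ccl20 and Cxcl9 were so as well.

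**Figure D2:**
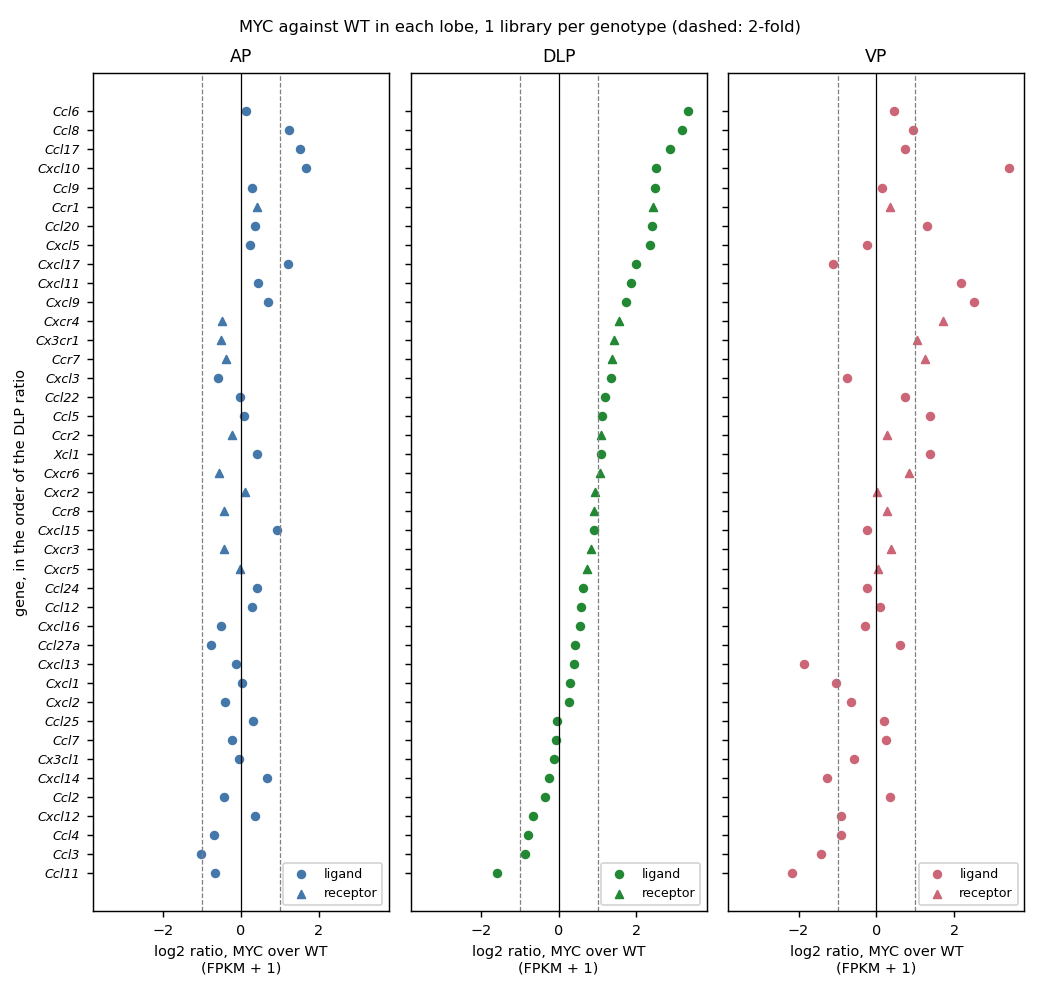
Log2 ratios of FPKM + 1, MYC over WT, of 41 genes in AP, DLP and VP, in the order of the DLP ratio, with ligands as circles, receptors as triangles and dashed lines at 2-fold. In DLP 20 of them lie at or beyond the upper dashed line and Ccl11 beyond the lower, whereas in AP most lie between the lines.

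The ligands of Cxcr3, Cxcl9, Cxcl10 and Cxcl11, which interferon induces and which attract activated T and NK cells, were higher in MYC DLP and MYC VP than in the WT libraries. Cxcl10 (chr5:92346638-92348889 in GRCm38.p6) had 41.7, 37 and 49.6 FPKM in WT AP, DLP and VP and 135, 212 and 533 FPKM in MYC AP, DLP and VP. All 3 WT values lay between 37 and 49.6 FPKM, and each MYC value was above every WT value. Cxcl10 was 3.23-fold higher in MYC AP, 5.74-fold higher in MYC DLP and 10.8-fold higher in MYC VP. The 95% interval of each ratio from the estimated reads, which covers counting error only, was 2.95 to 3.55, 5.34 to 6.19 and 10.1 to 11.4. Cxcl9 was far lower in level, with 0.811, 0.212 and 0.417 FPKM in WT AP, DLP and VP and 1.95, 3.04 and 7.08 FPKM in MYC AP, DLP and VP, and here too each MYC value exceeded every WT value. Cxcl9 was 14.4-fold higher in DLP and 17-fold higher in VP, on counting intervals of 9.5 to 22.2 and 12.9 to 23. In AP it was 2.4-fold higher (counting interval 1.79 to 3.31), at a log2 ratio of 0.7 that stayed under 2-fold and became 1.17 with a pseudocount of 0.1 FPKM. Cxcl11 had 1.08, 1.01 and 0.467 FPKM in WT AP, DLP and VP and 1.84, 6.25 and 5.63 FPKM in MYC AP, DLP and VP. It was 6.17-fold higher in DLP (counting interval 5.06 to 7.61) and 12.1-fold higher in VP (counting interval 9.14 to 16), with a log2 ratio of 0.45 in AP. Cxcl10 and Cxcl11 lie within the span of Art3, which is on the other strand from Cxcl10. Art3 itself had 3.97 to 10.7 FPKM and was lower in MYC DLP and MYC VP than in the WT library of the same lobe.

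The promoters of Cxcl10 and Cxcl9 are printed because these ligands moved together in MYC DLP and MYC VP. Each run is 5′ to 3′ on the gene's own strand, from 250 bases before to 50 bases after the start site, from RefSeq on GRCm38.p6, at chr5:92348840-92349139 and chr5:92328030-92328329, both on the minus strand. Capitals mark matches to the interferon-stimulated response element searched as GAAA, any 2 bases and GAAA, and to the NF-κB motif searched as GGG, any 2 bases, TT, any base and CC, each on both strands, and no matches overlap in these runs.
Cxcl10: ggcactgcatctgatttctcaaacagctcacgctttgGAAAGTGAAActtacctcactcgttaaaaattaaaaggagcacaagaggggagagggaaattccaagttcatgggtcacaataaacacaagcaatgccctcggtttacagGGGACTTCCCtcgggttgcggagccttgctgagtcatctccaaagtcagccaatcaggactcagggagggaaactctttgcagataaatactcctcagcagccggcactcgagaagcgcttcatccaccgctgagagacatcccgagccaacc
Cxcl9: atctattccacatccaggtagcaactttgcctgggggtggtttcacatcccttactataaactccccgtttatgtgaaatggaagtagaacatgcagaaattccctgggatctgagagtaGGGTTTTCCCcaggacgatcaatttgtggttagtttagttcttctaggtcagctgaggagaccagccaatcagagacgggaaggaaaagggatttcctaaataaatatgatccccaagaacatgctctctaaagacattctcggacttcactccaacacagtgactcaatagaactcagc
In Cxcl10 the response element lies 213 to 204 bases before the start site and the NF-κB match 103 to 94 bases before it. In Cxcl9 the NF-κB match lies 130 to 121 bases before the start site. Of the 42 genes, 29 had a promoter in the table used. The response element stood in 2 of these 29 (Cxcl10 and Cxcl14) and in 3.99% of the 27025 genes with promoters of 300 bases, and the gamma-activated site TTCNNNGAA in 2 (Ccl17 and Cxcl14) and in 9.55%. A match is a description of the letters in this window.

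Of the neutrophil-attracting ligands of Cxcr2, Cxcl3 and Cxcl5 were 2-fold higher in MYC DLP, and Cxcl1 was 2-fold lower in MYC VP. Cxcl1 (chr5:90891245-90893121) was among the highest ligands everywhere, with 143, 134 and 97.6 FPKM in the WT lobes and 147, 164 and 47.3 FPKM in the MYC lobes, in the order AP, DLP and VP. MYC VP was its lowest library, at a log2 ratio of -1.03 (ratio 0.485, counting interval 0.456 to 0.515). In the same order Cxcl2 had 76.8, 143 and 81 FPKM in the WT lobes and 58, 173 and 50.8 FPKM in the MYC lobes, and no lobe passed 2-fold. Cxcl3 had 4.89, 8.23 and 3.67 FPKM in the WT lobes and 2.9, 22.5 and 1.77 FPKM in the MYC lobes. It was 2.73-fold higher in MYC DLP (counting interval 2.38 to 3.13), while its log2 ratio was -0.6 in AP and -0.75 in VP. Cxcl5, an epithelial ligand of the same receptor, had 0.054, 0.204 and 0.236 FPKM in the WT lobes and 0.247, 5.11 and 0.0503 FPKM in the MYC lobes. Only MYC DLP held more than an estimated 17 reads of it, and the ratio in DLP was 25 with a counting interval of 14.8 to 49. Cxcl15, known mainly from lung epithelium, ranged from 0.672 FPKM in WT AP to 2.87 FPKM in MYC DLP, and its log2 ratios of 0.92 in AP and 0.9 in DLP lay just under 2-fold. The plain ratios were 3.21 in AP (counting interval 2.22 to 4.79) and 2.66 in DLP (counting interval 2.08 to 3.44). Cxcr2 itself had 77 estimated reads in MYC DLP and at most 14 elsewhere.

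Cxcl1, Cxcl2 and Cxcl3 lie in one cluster on chromosome 5, and their promoters are shown for the NF-κB letters that they share. They were read from RefSeq on GRCm38.p6 at chr5:90890995-90891294, chr5:90903649-90903948 and chr5:90785851-90786150, all on the plus strand, with capitals for the NF-κB letters on either strand.
Cxcl1: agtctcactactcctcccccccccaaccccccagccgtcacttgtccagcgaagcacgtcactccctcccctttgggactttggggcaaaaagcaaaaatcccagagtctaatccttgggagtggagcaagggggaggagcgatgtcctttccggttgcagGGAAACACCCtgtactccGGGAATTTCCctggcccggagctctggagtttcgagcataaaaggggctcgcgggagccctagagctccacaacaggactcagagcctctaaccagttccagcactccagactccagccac
Cxcl2: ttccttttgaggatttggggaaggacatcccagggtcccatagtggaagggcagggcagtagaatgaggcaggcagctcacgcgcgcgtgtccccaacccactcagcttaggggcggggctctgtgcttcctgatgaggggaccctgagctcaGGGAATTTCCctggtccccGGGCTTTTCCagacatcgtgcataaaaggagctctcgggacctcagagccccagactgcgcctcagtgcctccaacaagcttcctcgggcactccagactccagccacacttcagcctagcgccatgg
Cxcl3: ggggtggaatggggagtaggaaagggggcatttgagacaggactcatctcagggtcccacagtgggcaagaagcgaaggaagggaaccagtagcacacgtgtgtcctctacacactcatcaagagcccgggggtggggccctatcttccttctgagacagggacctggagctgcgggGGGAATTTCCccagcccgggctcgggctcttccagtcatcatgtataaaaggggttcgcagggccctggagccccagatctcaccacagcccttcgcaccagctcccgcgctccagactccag
The matches lie 89 to 80 and 71 to 62 bases before the start site in Cxcl1, 97 to 88 and 78 to 69 in Cxcl2, and 73 to 64 in Cxcl3. The motif stood in 7 of the 29 genes searched (Ccl9, Ccl20, Cxcl1, Cxcl2, Cxcl3, Cxcl9 and Cxcl10), and in 5.48% of all genes in the table. In DLP all 7 genes with the motif had log2 ratios above 0 and 5 of them were 2-fold higher in MYC, whereas in VP 3 were higher and 1 lower. Of all 42 chemokine genes, 33 were above 0 and 21 higher in DLP, and 10 were higher and 6 lower in VP. In MYC VP, Cxcl10 and Cxcl9 were 2-fold higher, Cxcl1 was 2-fold lower and Cxcl2 had a log2 ratio of -0.66.

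**Figure D3:**
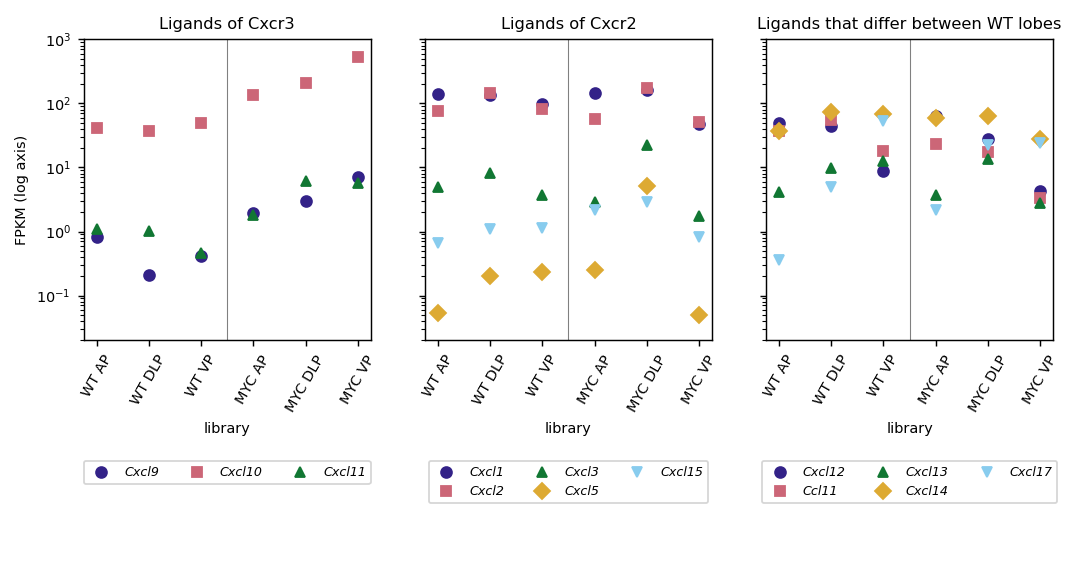
FPKM on a log axis of the ligands of Cxcr3 (left), the ligands of Cxcr2 (middle) and 5 ligands that passed 2-fold between WT lobes (right) in the 6 libraries, 1 point per gene and library. The 3 ligands of Cxcr3 are higher in MYC DLP and MYC VP than in any WT library. The 5 ligands of Cxcr2 all peak in MYC DLP, Cxcl5 through the choice of members. Only Cxcl3 and Cxcl5 of these are 2-fold above WT DLP on the scale of FPKM + 1.

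Among ligands that stroma and epithelium make, Ccl11, Cxcl13, Cxcl14 and Cxcl17 were lower in MYC VP than in WT VP, and Cxcl12 lay near the 2-fold line. The group is not a fixed list, and Ccl20, an epithelial product given further below, was 2-fold higher in MYC VP, at a log2 ratio of 1.3. Cxcl12 (chr6:117168535-117181368), the retention signal for cells carrying Cxcr4, had 49.1, 44.5 and 8.94 FPKM in the WT lobes and 63.2, 28 and 4.27 FPKM in the MYC lobes, in the order AP, DLP and VP. The VP libraries were the lowest of each genotype. Its log2 ratio in VP was -0.92, and -1.02 to -1.15 with the 3 other scalings, so that the call at 2-fold turns on the scaling. Ccl11, eotaxin, which attracts eosinophils, had 37.7, 55.4 and 18.4 FPKM in the WT lobes and 23.7, 17.7 and 3.34 FPKM in the MYC lobes. Each MYC value was below its WT partner, by 3.12-fold in DLP and 5.5-fold in VP, and the counting intervals of MYC over WT were 0.291 to 0.352 and 0.149 to 0.22. Ccl24, another eotaxin, stayed between 0.073 and 0.95 FPKM.

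Cxcl13, which guides B cells into follicles, had 4.09, 9.97 and 12.6 FPKM in the WT lobes and 3.69, 13.5 and 2.75 FPKM in the MYC lobes. MYC VP was its lowest library, 4.58-fold below WT VP (counting interval of MYC over WT 0.177 to 0.268), while AP and DLP stayed under 2-fold. Cxcl14, an epithelial ligand for which no classical receptor of this family is settled, had 36.7, 74.5 and 68 FPKM in the WT lobes and 59, 62.6 and 27.5 FPKM in the MYC lobes. In VP it was 2.47-fold lower in MYC (counting interval of MYC over WT 0.382 to 0.428). Cxcl17 went opposite ways in different lobes, with 0.353, 5.01 and 53.1 FPKM in the WT lobes and 2.16, 22.8 and 23.7 FPKM in the MYC lobes. It was 6.12-fold higher in MYC AP, on an estimated 5 reads in WT AP and an interval of 2.51 to 19.8, and 4.55-fold higher in MYC DLP (interval 3.74 to 5.57). In VP it was 2.24-fold lower in MYC (interval of MYC over WT 0.405 to 0.494). MYC DLP and MYC VP thereby held nearly the same level, where WT DLP and WT VP were 10.6-fold apart. Fibroblast markers were lower or level in VP and went both ways in DLP. The summed FPKM of 6 markers (Pdgfra, Col1a1, Col1a2, Col3a1, Dcn and Lum) were 1201, 1284 and 648 in WT AP, DLP and VP and 1365, 698 and 195 in MYC AP, DLP and VP, mostly from Dcn. In VP 3 of the 6 were 2-fold lower, and in DLP Col1a1 and Col3a1 were higher and Dcn and Pdgfra lower. In AP 3 were higher. Of 5 smooth muscle markers, 3 were lower in DLP and 2 in VP, with median log2 ratios of -1.18 and -0.88. The part of these cells in the ligand values was not tested.

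Of the CC ligands that attract monocytes, Ccl2 and Ccl7 were abundant and stayed under 2-fold between genotypes. Their neighbour Ccl8, which was paired here with Ccr8, was low and was 2-fold higher in MYC AP and MYC DLP. Ccl2, the main ligand of Ccr2, had 98.1, 179 and 65.6 FPKM in the WT lobes and 73.1, 139.8 and 84.3 FPKM in the MYC lobes, again in the order AP, DLP and VP. Ccl7, another ligand of Ccr2, had 44.7, 60.7 and 18.9 FPKM in the WT lobes and 38.3, 58.3 and 22.7 FPKM in the MYC lobes. Both were highest in WT DLP. Ccl12 ranged from 2.2 FPKM in WT VP to 7.07 FPKM in MYC DLP, with no log2 ratio beyond 0.59. Ccl8, made by tissue macrophages, had 1.16, 0.0696 and 0.529 FPKM in the WT lobes and 4.13, 8.6 and 1.92 FPKM in the MYC lobes. In DLP an estimated 1 read in WT stood against 93 in MYC, a ratio of 124 whose counting interval of 22.2 to 5050.1 leaves its size unsettled. In AP the ratio was 3.57 (interval 1.82 to 8.38), and in VP the log2 ratio of 0.93 lay just under the line. The plain ratio in VP was 3.63 (interval 1.64 to 9.62).

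Ccl3 and Ccl4, made by activated macrophages and lymphocytes, had lower values in each MYC lobe, past 2-fold for Ccl3 in AP and VP. Ccl3 had 96.3, 179 and 87.6 FPKM in the WT lobes and 46.8, 98.1 and 31.9 FPKM in the MYC lobes. Its log2 ratios were -1.02, -0.86 and -1.43, the VP value on a counting interval of 0.335 to 0.395 for the ratio, and the DLP value became -1.03 with equal sums of FPKM without the 20 highest genes. Ccl4 followed it with 62.1, 123 and 49 FPKM in the WT lobes and 38.3, 71.3 and 25.8 FPKM in the MYC lobes, at log2 ratios of -0.68, -0.78 and -0.9. The VP value of Ccl4 passed 2-fold with each of the 3 other scalings, at -1.01 to -1.17. The RefSeq spans of Ccl3 and Ccl4 overlap, so that some reads could belong to either. Ccl5, a product of T cells and NK cells, went the other way, with 15, 19.7 and 11.8 FPKM in the WT lobes and 15.9, 44.2 and 32 FPKM in the MYC lobes. It was 2.24-fold higher in DLP (counting interval 1.97 to 2.56) and 2.72-fold higher in VP (counting interval 2.33 to 3.19), although the DLP log2 ratio of 1.13 became 0.96 with equal sums of FPKM without the 20 highest genes.

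Ccl6 and Ccl9, myeloid ligands of Ccr1, were high in MYC DLP only. Ccl6 had 3.75, 1.17 and 1.29 FPKM in the WT lobes and 4.21, 20.8 and 2.14 FPKM in the MYC lobes, so that MYC DLP stood well above the range of the other 5 libraries. The ratio in DLP was 17.8 with a counting interval of 12.8 to 25.4. Ccl9 had 1.47, 0.657 and 0.66 FPKM in the WT lobes and 2.0, 8.19 and 0.824 FPKM in the MYC lobes, and its ratio in DLP was 12.5 (interval 8.6 to 19). In AP and VP both stayed under 2-fold. Macrophage and monocyte markers were also higher there. Of 12 listed, 11 were 2-fold higher in MYC DLP and 7 in MYC VP, with summed FPKM of 254, 117 and 69.7 in WT AP, DLP and VP and 236, 544 and 348 in MYC AP, DLP and VP. Their part in these ligand values was not tested.

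Ccl17, a dendritic cell product that binds Ccr4, had 0.637, 0.827 and 1.05 FPKM in the WT lobes and 3.7, 12.2 and 2.38 FPKM in the MYC lobes. Ccl22, which shares that receptor, had 3.92, 4.82 and 3.31 FPKM in the WT lobes and 3.81, 12.3 and 6.2 FPKM in the MYC lobes. Both were highest in MYC DLP. Ccl17 was 5.81-fold higher in MYC AP (interval 2.38 to 18.8) and 14.7-fold higher in MYC DLP (interval 8.28 to 29.7), and Ccl22 was 2.55-fold higher in MYC DLP (interval 2.19 to 2.99). In VP their log2 ratios were 0.72 and 0.74. Of 8 dendritic cell markers, which include Ccr7 and Xcr1, 3 were 2-fold higher in MYC DLP and 1 in MYC VP. Ccl20, an epithelial product that attracts Ccr6-bearing cells, had 0.264, 0.178 and 0.373 FPKM in the WT lobes and 0.639, 5.18 and 2.38 FPKM in the MYC lobes. All 3 WT values rested on 6 to 17 estimated reads, and MYC DLP and MYC VP stood above them at ratios of 29.1 (interval 13.7 to 65.3) and 6.36 (interval 3.71 to 11.3). Xcl1, which NK and T cells secrete toward cross-presenting dendritic cells, had 10.4, 20.1 and 12 FPKM in the WT lobes and 14.2, 43.9 and 32.5 FPKM in the MYC lobes. It was 2.19-fold higher in DLP and 2.7-fold higher in VP (intervals 1.89 to 2.53 and 2.28 to 3.22), and the DLP log2 ratio of 1.09 became 0.93 with equal sums without the 20 highest genes. Of 12 T and NK cell markers, 8 were 2-fold higher in MYC DLP, and 3 were higher and 1 lower in MYC VP. Their summed FPKM were 20.6, 23.2 and 15.5 in WT AP, DLP and VP and 24.1, 73.7 and 35.8 in MYC AP, DLP and VP, and the part of these cells in the ligand values was not tested.

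The remaining ligands differed little between genotypes. Cxcl16 and Cx3cl1 are membrane-bound and also hold leukocytes to the surface of the cells that make them. Cxcl16, the ligand of Cxcr6, had 126, 92.1 and 95.4 FPKM in the WT lobes and 88.5, 134 and 77.6 FPKM in the MYC lobes. Cx3cl1, or fractalkine, had 12.1, 17.6 and 18 FPKM in the WT lobes and 11.7, 16.1 and 11.8 FPKM in the MYC lobes. No lobe passed 2-fold for either of them. Ccl25, known from thymus and gut, ranged from 0.81 to 2.31 FPKM with log2 ratios of at most 0.31. The skin chemokine Ccl27a ranged from 4.36 to 8.8 FPKM and overlaps Il11ra1 on the other strand. Cxcl16 overlaps Zmynd15, Cxcl17 the non-coding gene 4732471J01Rik, Cxcr6 Fyco1 on the other strand, and Cxcr5 Bcl9l. Whether the counting used the strand of the reads is not given in the sources used here.

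All 11 receptors were highest in MYC DLP, 3 of them (Ccr8, Cxcr2 and Cxcr5) through the choice of members. Of the other 8, 7 were 2-fold higher there than in WT DLP. Cxcr4 (chr1:128588199-128592299), carried by most leukocytes and by some endothelial and epithelial cells, was the most abundant receptor in each library, with 20.8, 15 and 6.86 FPKM in the WT lobes and 14.7, 45.7 and 24.6 FPKM in the MYC lobes, in the order AP, DLP and VP. It was 3.04-fold higher in DLP (counting interval 2.8 to 3.31) and 3.58-fold higher in VP (counting interval 3.19 to 4.03), with a log2 ratio of -0.48 in AP. Ccr7, which takes mature dendritic cells and naive T cells to lymph nodes, had 2.89, 3.4 and 1.25 FPKM in the WT lobes and 2.0, 10.5 and 4.34 FPKM in the MYC lobes. It was 3.08-fold higher in DLP and 3.47-fold higher in VP, on intervals of 2.68 to 3.55 and 2.78 to 4.34.

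The receptors of monocytes and macrophages followed. Ccr1 had 0.998, 0.597 and 0.245 FPKM in the WT lobes and 1.67, 7.53 and 0.584 FPKM in the MYC lobes, and was 2-fold higher on the log2 scale in DLP alone, at a ratio of 12.6 (interval 9.95 to 16.3). Ccr2, the receptor of inflammatory monocytes, had 1.81, 0.939 and 0.577 FPKM in the WT lobes and 1.42, 3.15 and 0.913 FPKM in the MYC lobes. Its log2 ratio in DLP was 1.1 and became 0.98 with equal sums without the 20 highest genes. Cx3cr1, the fractalkine receptor of resident macrophages, had 2.93, 0.525 and 0.255 FPKM in the WT lobes and 1.76, 3.12 and 1.58 FPKM in the MYC lobes. WT AP and MYC DLP were its highest libraries, and the ratios were 5.94 in DLP and 6.21 in VP (intervals 4.68 to 7.55 and 4.46 to 8.68). The VP log2 ratio of 1.04 became 0.91 with equal sums of FPKM. Cxcr6, found on T and NK cells that stay in tissues, had 2.16, 1.29 and 0.501 FPKM in the WT lobes and 1.16, 3.82 and 1.66 FPKM in the MYC lobes. It was 2.95-fold higher in DLP (interval 2.32 to 3.75), at a log2 ratio of 1.07 that became 0.95 with equal sums without the 20 highest genes. In VP the plain ratio of Cxcr6 was 3.31 (interval 2.31 to 4.84), at a log2 ratio of 0.82 that stayed under 2-fold. Another 4 were low. Cxcr3, the receptor of Cxcl9, Cxcl10 and Cxcl11, ranged from 0.0143 FPKM in WT VP to 1.09 FPKM in MYC DLP, and Ccr8, found on regulatory T cells, from 0.084 FPKM in MYC AP to 1.63 FPKM in MYC DLP. Cxcr2 of neutrophils and Cxcr5 of B cells passed 0.5 FPKM in MYC DLP only, on 77 and 60 estimated reads.

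The receptors were read beside the pan-leukocyte gene Ptprc, which encodes CD45, as a description made after the values were seen. Ptprc had 4.59, 3.18 and 1.91 FPKM in the WT lobes and 4.62, 11.4 and 4.72 FPKM in the MYC lobes, and was 3.6-fold higher in MYC DLP and 2.47-fold higher in MYC VP. The receptor sum was 3.58-fold higher in both lobes. Divided by Ptprc it was 7.75, 7.57 and 5.54 in WT AP, DLP and VP and 5.67, 7.54 and 8.03 in MYC AP, DLP and VP. In DLP the sum and Ptprc differed between genotypes by a like factor, but the sum was mostly Cxcr4, and without it the receptor sum was 4.48-fold higher. Both sums include Ccr8, Cxcr2 and Cxcr5, which entered through MYC DLP. In MYC DLP these had 1.63, 0.913 and 0.716 FPKM, of a sum of 40.5 FPKM without Cxcr4. In WT DLP they had 0.401, 0.00746 and 0.0264 FPKM, of a sum of 9.05 FPKM without Cxcr4. Of the 8 receptors that did not enter through MYC DLP alone, 4 had a larger ratio in DLP than Ptprc and 4 a smaller one. In VP 6 of these 8 had a larger ratio than Ptprc, Cxcr3 among them on an estimated 1 read in WT VP. The reading depends on the marker. Over the summed 5 pan-leukocyte markers, which were 2.82-fold higher in DLP and 4.49-fold higher in VP, the receptor sum was 0.446 (WT) and 0.567 (MYC) in DLP but 0.73 (WT) and 0.584 (MYC) in VP, which is opposite in VP to the reading over Ptprc. The marker sum in DLP was mostly Cd52, with 39.7 FPKM in WT and 80.8 FPKM in MYC. The log2 ratio of Cd52 in DLP was 1.01, while those of Ptprc, Coro1a, Laptm5 and Cd53 were 1.57, 1.98, 2.22 and 2.22. The higher DLP value in MYC over the marker sum therefore rests on Cd52. The ligand sum was 1.16-fold higher in DLP and 1.37-fold higher in VP, which rested on Cxcl10, since without it the ratios of MYC over WT were 1.02 and 0.726. B cell markers summed to 8.78 FPKM in MYC DLP and to 2.26 FPKM or less elsewhere, beside Cxcr5. The neutrophil list, which includes Cxcr2, summed to 39.1 FPKM in MYC DLP and to 4.15 FPKM or less elsewhere, beside Cxcr2, Cxcl3 and Cxcl5, with S100a8 at 18 FPKM but Ly6g, a defining neutrophil gene, listed at 0. Endothelial markers differed by 2-fold in no lobe. The part of cell content in the receptor values was not tested.

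**Figure D4:**
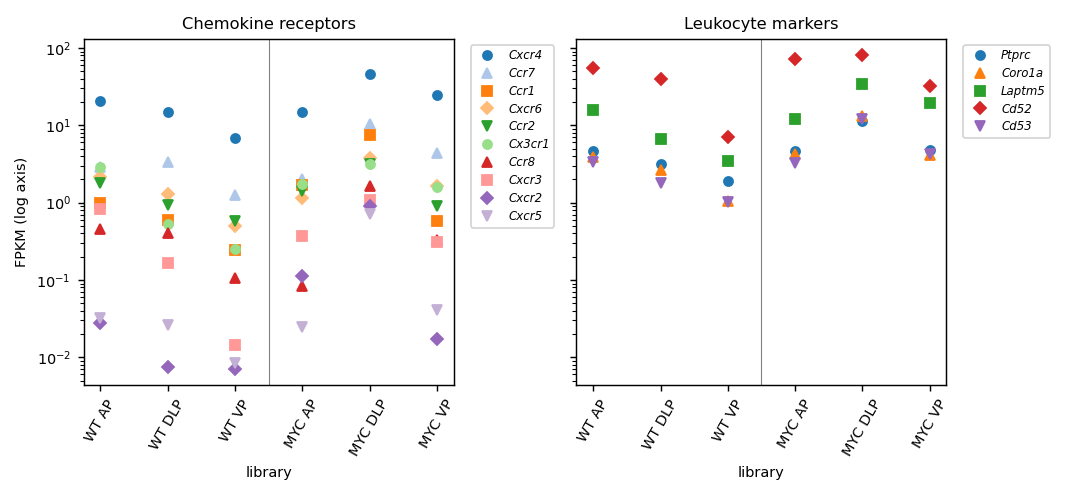
FPKM on a log axis of 10 receptors (left) and of 5 pan-leukocyte markers (right) in the 6 libraries, 1 point per gene and library. In both panels MYC DLP holds the highest point of every gene, for Ccr8, Cxcr2 and Cxcr5 through the choice of members, and WT VP lies low.

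Ligands and their receptors did not go together in every case. For Cxcr3, the ligand sum was 43.6, 38.2 and 50.5 FPKM in WT AP, DLP and VP and 139, 222 and 546 FPKM in MYC AP, DLP and VP, and the receptor was at 1.09 FPKM or less. Cxcr3 itself was 6.54-fold higher in MYC DLP (counting interval 3.49 to 13.5) and 21.8-fold higher in MYC VP (3.84 to 995, on an estimated 1 read in WT VP), as its ligands were, though under 2-fold on the log2 scale of FPKM + 1 in both, and was at a ratio of 0.442 in AP (0.251 to 0.735). For Cxcr4, ligand and receptor had log2 ratios of opposite sign in DLP and VP. Cxcl12 was at -0.65 and -0.92, under 2-fold in both as deposited, with 28.0 and 4.27 FPKM in MYC. Cxcr4 was at 1.54 and 1.7, with 45.7 and 24.6 FPKM in MYC. Ccr7 was present in every library although its ligands Ccl19, Ccl21a, Ccl21b and Ccl21c were all listed at 0, and a listed 0 need not be an absence of transcripts. The receptors Ccr3, Ccr4, Ccr6, Ccr9, Ccr10 and Xcr1 stayed under 0.5 FPKM in all libraries although ligands of each passed it. Of these pairs, Xcl1 reached 43.9 FPKM in MYC DLP and Ccl11 55.4 FPKM in WT DLP.

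Many of these genes lie side by side in the genome, and neighbours moved alike in some clusters and not in others. With gaps of up to 200 kb, 27 of the 42 genes fell into 7 clusters on GRCm38.p6. In the cluster Cxcl9, Cxcl10 and Cxcl11 (chr5:92321331-92363296) all 3 were 2-fold higher in DLP and in VP. Cxcr6, Ccr1 and Ccr2, of another cluster, were each 2-fold higher in DLP. By contrast, in the cluster Ccl2, Ccl7, Ccl11, Ccl12 and Ccl8 (chr11:82035577-82116799) the DLP log2 ratios ran from -1.59 for Ccl11 to 3.17 for Ccl8. In the cluster Ccl5, Ccl9, Ccl6, Ccl3 and Ccl4 (chr11:83525778-83664683), Ccl5, Ccl9 and Ccl6 were 2-fold higher in DLP while Ccl3 and Ccl4 were at -0.86 and -0.78. In the cluster Cxcl5, Cxcl3, Cxcl15, Cxcl1 and Cxcl2 (chr5:90759298-90905938), log2 ratios were 0.27 to 2.34 in DLP and -1.03 to -0.23 in VP. Of Ccl22, Cx3cl1 and Ccl17 (chr8:94745684-94812038), Ccl22 and Ccl17 were 2-fold higher in DLP and Cx3cl1 between them was at -0.12. The pair Cx3cr1 and Ccr8 (chr9:120048683-120094906), had DLP log2 ratios of 1.43 and 0.91.

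**Figure D5:**
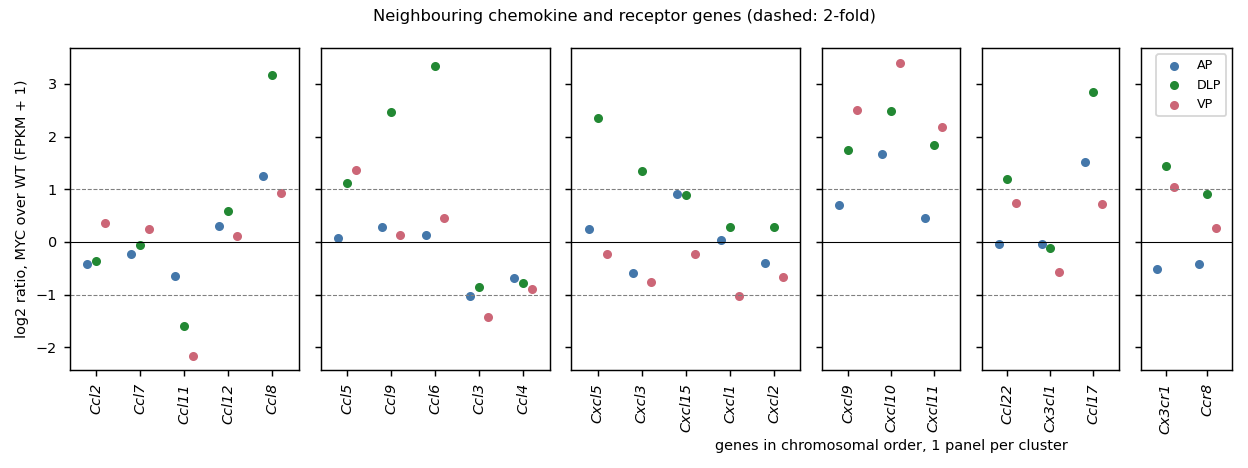
Log2 ratios of FPKM + 1, MYC over WT, of 23 genes of 6 clusters in their chromosomal order, 1 panel per cluster and 1 colour per lobe, with dashed lines at 2-fold. The panel of Cxcl9, Cxcl10 and Cxcl11 lies above the line in DLP, whereas the panels of Ccl2 to Ccl8 and of Ccl5 to Ccl4 spread over either side of 0.

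Genes of the chemokine system with other names were followed in a list of 24 symbols, of which 20 were in the table. In MYC against WT, 1 was 2-fold higher in AP, 6 were higher and 1 lower in DLP, and 2 were higher and 1 lower in VP, with median log2 ratios of -0.10, 0.69 and 0.12 beside 0.12, 0.04 and 0.03 over all genes. Of all genes 1.90% were higher in AP, 6.54% higher and 3.09% lower in DLP, and 6.39% higher and 5.14% lower in VP. The scavenger receptor Ackr3, which removes Cxcl12, had 61.3, 67.5 and 18.2 FPKM in the WT lobes and 48.9, 44.7 and 10.1 FPKM in the MYC lobes. Ackr1, which carries chemokines across venules, had 18.2, 31.7 and 5.37 FPKM in the WT lobes and 14.7, 21.7 and 8.92 FPKM in the MYC lobes. Neither passed 2-fold between genotypes. Dpp4, the protease that clips and inactivates Cxcl10 and Cxcl12, had 10.4, 13.3 and 6.32 FPKM in the WT lobes and 9.87, 3.3 and 3.5 FPKM in the MYC lobes, a log2 ratio of -1.73 in DLP. Mif, a cytokine that also binds Cxcr2 and Cxcr4, had 142, 135 and 123 FPKM in the WT lobes and 117, 304 and 405 FPKM in the MYC lobes and was 2-fold higher in DLP and VP, at log2 ratios of 1.17 and 1.71. Ackr4, the scavenger of Ccl19, Ccl21 and Ccl25, was the 1 gene higher in AP, at 1.0. Rarres2, which encodes the chemoattractant chemerin, was lower in VP, at -1.41.

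Of 22 genes that induce or restrain chemokines, 1 was 2-fold higher in AP, 6 were higher and 1 lower in DLP, and 3 were higher in VP, with median log2 ratios of -0.10, 0.57 and 0.15. The same shares and medians of all genes stand beside these. Irf7, an interferon-induced factor of the interferon response, had 9.38, 8.18 and 4.32 FPKM in the WT lobes and 30.5, 41.2 and 27.1 FPKM in the MYC lobes. Its log2 ratios were 1.6, 2.2 and 2.4. On the scale of FPKM + 1 it was the only gene of the list higher in all 3 lobes, as Cxcl10 was among the chemokines. With a pseudocount of 0.1 FPKM, Cxcl10 shared this with Ccl8, Ccl17, Ccl20 and Cxcl9. Irf9, a subunit of the complex that binds the response element, was higher in DLP and VP, at 1.26 and 1.65. Ifng, which encodes interferon gamma, had 0.896, 0.781 and 0.20 FPKM in the WT lobes and 0.755, 2.0 and 1.14 FPKM in the MYC lobes. Its log2 ratios on FPKM + 1 stayed under 2-fold, whereas the plain ratios were 2.57 in DLP and 5.68 in VP. Ifnb1, an interferon of the other type, was at 2.63 FPKM or less in every library. Of the inflammatory cytokines, Il1a, Il1b and Ltb were higher in DLP, at 1.2, 1.44 and 1.94, and Tnf was lower, at -1.15. Il6 had 203, 102 and 29 FPKM in the WT lobes and 114, 107 and 32.1 FPKM in the MYC lobes. The NF-κB subunit Rela had 112, 65.6 and 73.7 FPKM in the WT lobes and 76.2, 75.9 and 77.9 FPKM in the MYC lobes. Neither passed 2-fold in any lobe.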

How the data were processed

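RNA was measured in the 3 lobes of 1 WT and 1 MYC mouse, and groups were taken from the sample titles. The authors mapped single-end 75 base reads of stranded poly(A) libraries with STAR and quantified genes with Cufflinks, and the submitters' processing notes name mm10. The gene annotation is not given in the sources used here. The deposited table holds FPKM. The study calls these counts and names a count test, but the values are not whole, so no count test was run and FPKM were used as deposited. All 58 symbols with a chemokine or receptor pattern were found in RefSeq on GRCm38.p6, which gave coordinates and promoters.

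The log2 ratio is log2((FPKM + 1) / (FPKM + 1)), with a 2-fold threshold, set beside the 14669 genes at 0.5 FPKM or more in 1 library. The value of 1 read was recovered from genes with 1 exon longer than 600 bases at under 0.3 FPKM. Of these low values, 54.9% to 63.5% were whole multiples of it, to within 0.03 times the multiple. Reads per gene were then estimated from the mean GENCODE M1 transcript length less 200 bases. Exact 95% (Clopper-Pearson) intervals of the ratio of estimated reads cover counting error only. The computations were tested on simulated data. 1 receptor and 1 regulator are counted but not reported here by name. Members at 10 FPKM or more in 1 library, or 2-fold different between genotypes in 1 lobe, or nearest the 0.5 FPKM line, were named with their values. The members and lists were chosen with earlier results of these data known. Alternatives were other scalings, pseudocounts, filters and thresholds. Software was Python 3.11.15 with scipy 1.17.1, pandas 2.3.3, numpy 2.4.6 and matplotlib 3.10.9.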

Additional observations from a re-analysis of the deposited data

Results flagged for a closer look

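Cxcl17, a chemokine of mucosal epithelia, went opposite ways in different lobes. Its log2 ratio of MYC against WT in AP minus that in VP was 2.35, and the ratio in DLP minus that in VP was 3.11. With 1 library for each lobe and genotype these differences were not tested. WT AP held an estimated 5 reads of it, and the direction in each lobe was the same with the 3 other scalings and with a pseudocount of 0.1 FPKM.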

How the results depend on the processing

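The lobes of a genotype come from 1 mouse, so lobe comparisons are within a mouse, while the genotypes are not paired. No paired analysis was run and no result comes from a test. Leaving out a replicate was not possible because each group has 1 library. Of the counts of genes by comparison and of genes present, 86 values under the alternatives stayed within 1.5 times the count reported and 22 did not. For the single genes at 10 FPKM or more in 1 library or past 2-fold in 1 lobe, 312 values moved little, 84 moved more, and none changed the sign of a call. Over all 42 genes, the other scalings ended 5 calls of MYC against WT (Ccl5, Ccr2, Cxcr6 and Xcl1 in DLP and Cx3cr1 in VP, at 0.91 to 0.98) and made 3 (Ccl4 and Cxcl12 in VP and Ccl3 in DLP), and the lower pseudocount made 20. Between WT lobes, the scalings ended 5 calls and the lower pseudocount made 21. With a pseudocount of 0.1 FPKM, which weighs low genes more, 8 genes were higher and 2 lower in AP (beside 5.97% and 1.31% of all genes), 27 were higher in DLP (beside 11.6%), and 15 were higher and 10 lower in VP (beside 11.9% and 10.9%). The 27 in DLP include all 4 genes that passed the minimum in MYC DLP only (Cxcl5, Ccr8, Cxcr2 and Cxcr5). In WT VP against WT AP 4 were then higher and 15 lower (beside 10.8% and 17.0%), in WT VP against WT DLP 2 higher and 14 lower (beside 4.10% and 13.3%), and in WT DLP against WT AP 7 lower (beside 3.67%). With a 4-fold threshold, 0 were higher and 0 lower in AP (beside 0.464% and 0.123%), 8 higher and 0 lower in DLP (beside 1.39% and 0.566%), and 3 higher and 1 lower in VP (beside 1.06% and 0.784%). The lobe comparisons then gave 1 higher and 1 lower in WT VP against WT AP (beside 1.47% and 1.38%), 1 lower in WT VP against WT DLP (beside 0.648%), and 1 higher and 0 lower in WT DLP against WT AP (beside 0.627% and 0.211%). Equal sums of FPKM without the 20 highest genes left 17 genes higher and 2 lower in DLP (beside 5.35% and 4.08%). Cxcl5, which passed the minimum in MYC DLP only, was among these 17 and among the 8 higher in DLP at 4-fold. Size factors from medians of ratios, and equal sums of FPKM, each left 1 gene higher in WT DLP against WT AP (beside 2.71% and 2.47%).

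The scalings shift all genes. In VP the median log2 ratio of all genes went from 0.03 to -0.11 with equal sums and to -0.14 without the 20 highest genes, with 4.16% of genes higher and 8.21% lower in the latter. Size factors moved it from 0.12 to 0.01 in AP and from -0.14 to 0.00 in WT VP against WT DLP, where 3.55% of genes were then higher and 3.86% lower. With equal sums, WT DLP against WT AP had 2.47% higher and 2.07% lower and its median went from 0.08 to -0.06. Low genes in WT AP, the library with the fewest reads, are the least precise.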
